A study of Mus musculus with 9 samples.

Results

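Immediate early genes are transcribed within minutes of a stimulus, without new protein synthesis, and several of them encode the subunits of the transcription factor AP-1. The genes described here are Fos, Fosb, Fosl1, Fosl2, Jun, Jund, Egr1, Atf3, Ier2 and Ier3, taken by their symbols as the deposited tables give them. These are 10 of the 22609 listed genes, and 10 of 10 passed the filter on low counts that left 13366 genes for testing.

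The data were RNA-seq counts from 9 libraries, titled by the submitters as tumor replicates. The tumors were of 4T1, a mouse cell line that models triple-negative breast cancer, implanted orthotopically in BALB/c mice. The titles do not say whether each library came from a separate tumor. The LFD group received a diet with 10 kcal% fat and the HFD group a diet with 60 kcal% fat, each from 6 weeks before injection of the cells and each with vehicle treatment. The HFD + EC359 group received the high-fat diet and EC359, a small-molecule inhibitor of the LIF receptor, at 5 mg/kg on 5 days a week. Each group had 3 libraries, every mouse carried the same 4T1 cells, and tumor tissue was sequenced whole with the host cells it contained.

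AP-1 is a dimer of leucine zipper proteins. Fos family proteins pair with Jun family proteins, and the Jun proteins can also pair with each other. In epithelial and mesenchymal cells, growth factors, cytokines and stress act through MAP kinases and serum response factor to induce Fos, Egr1 and other genes of the class, and the induced transcripts are short-lived. Fosl1 and Fosl2, which lack the strong activation domain of Fos, are expressed for longer and are well known in invasive breast cancer cells. LIF receptor signalling through gp130 activates STAT3 and also MAP kinases.

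Stretches before the gene starts are shown because they match sequence elements of kinds through which immediate early genes can be induced. Whether these matches act on the genes was not tested. They were read from the mouse genome NCBIM37 (mm9), the build of the deposited tables, in the 500 bases before the outermost annotated start. Both strands were searched, each stretch is written 5′ to 3′ on the strand of its gene, and capitals mark the match with 10 bases on either side.
Fos, CArG box bound by serum response factor, chr12:86814521-86814550, plus strand: cacaggatgtCCATATTAGGacatctgcgt
Fosb, CArG box, chr7:19895647-19895676, minus strand: tggccgagctCCTTATATGGctaattgcgt
Ier2, cAMP response element, chr8:87186779-87186806, minus strand: ggtgttgcagTGACGTCActctcagtat
Jun, 8-base AP-1-like site, chr4:94718941-94718968, minus strand: agcctcggggTGACATCAtgggctattt
Ier3, STAT site, chr17:35958221-35958249, plus strand: gttctttatcTTCTTGGAAgtttgtgcaa

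The CArG box was found before 3 of the 10 genes, Fos, Fosb and Egr1, and before 2.54% of the 22424 genes with a sequence. The cAMP response element TGACGTCA was found before 1 of the 10 genes and before 2.46% of all genes. The STAT site TTCNNNGAA stood before 1 of the 10 genes and before 14.2% of all genes. The AP-1 site TGACTCA had no match before any of the 10 genes in this window, against 7.23% of all genes. The Jun site TGACATCA, searched for after the data had been seen, occurred before 3.28% of all genes. The matches shown lie 320 to 311 bases before the start of Fos, 272 to 263 before Fosb, 45 to 38 before Ier2 and before Jun, and 427 to 419 before Ier3. None of the motifs contains another, and a match is a description of sequence and no measure of binding.

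Library totals ran from 5085357 to 9751201 counts, and the genes described here had between 78 and 3239 counts in a library. LFD replicate 1 stood apart. The mean chi-square per gene between its counts and those of the other LFD libraries was 3.18 and 2.59, where counting noise alone gives about 1, and every other pair of libraries within a group had 1.37 to 1.58. The libraries also differed by the share of G and C bases (GC) in the exons. Relative to the mean over the libraries, the 3332 genes with the lowest GC stood against the 3332 with the highest GC at a log2 difference of -0.54 to -0.32 in the LFD group, 0.11 to 0.16 in the HFD group and 0.25 to 0.30 in the HFD + EC359 group. Jund was at percentile 98.3 of all genes for exon GC, Ier2 at 96.2 and Fosl1 at 87.7, and the lowest of the 10 was Fos at 55.4. A fit with each library's trend over GC and gene length removed is therefore given beside results whose call it ends or gains. It is also given beside passing results whose value it moves by over 1.5 times. Other differences that did not pass are mostly given without it, and the trend can move these too. Whether this trend is technical was not tested.

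In the HFD tumors, most of the 10 genes were lower than in the LFD tumors. The largest decreases were those of Fosb and Jund, to 0.51 and 0.55 of the LFD level, followed by Ier2 at 0.668. Of the 10 genes, 7 fell, 0 rose and 3 did not pass at an adjusted p under 0.05 (quasi-likelihood test of edgeR, Benjamini-Hochberg over all tested genes), beside 51.8% of all tested genes that passed, 25.8% lower and 26% higher. The median log2 fold change was -0.29 for the 10 genes and 0.01 for all tested genes. The LFD and HFD libraries did not overlap for 8 of the 10 genes, beside 57.1% of all tested genes. With LFD replicate 1 left out, 6 fell, namely Fosb (-0.82), Jund (-0.77), Ier2 (-0.50), Ier3 (-0.34), Jun (-0.29) and Fosl1 (-0.27), beside 47.3% of all tested genes that passed in that fit. With the GC and length trend taken out, 5 fell and 1, Egr1, rose, beside 42.8% of all tested genes that passed. In bulk tumor RNA, fewer cells of a type and less RNA per cell cannot be told apart.

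In the HFD + EC359 tumors, Fos, Fosl2, Jun, Jund and Ier2 were lower than in the HFD tumors, by 0.16 to 0.37 on the log2 scale. Of the 10 genes, 5 fell, 0 rose and 5 did not pass, beside 26.6% of all tested genes that passed, 13.9% lower and 12.7% higher. The median log2 fold change was -0.18 for the 10 genes and 0.01 for all tested genes. The groups did not overlap for 5 of the 10 genes, each of them lower in HFD + EC359, beside 41.3% of all tested genes and 20.7% in that direction. This comparison uses the same HFD libraries as the first, so the values of both are given side by side for each gene and no overlap is drawn from them. Levels of single genes are given in CPM, counts scaled to the size of each library with TMM factors.

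**Figure D1:**
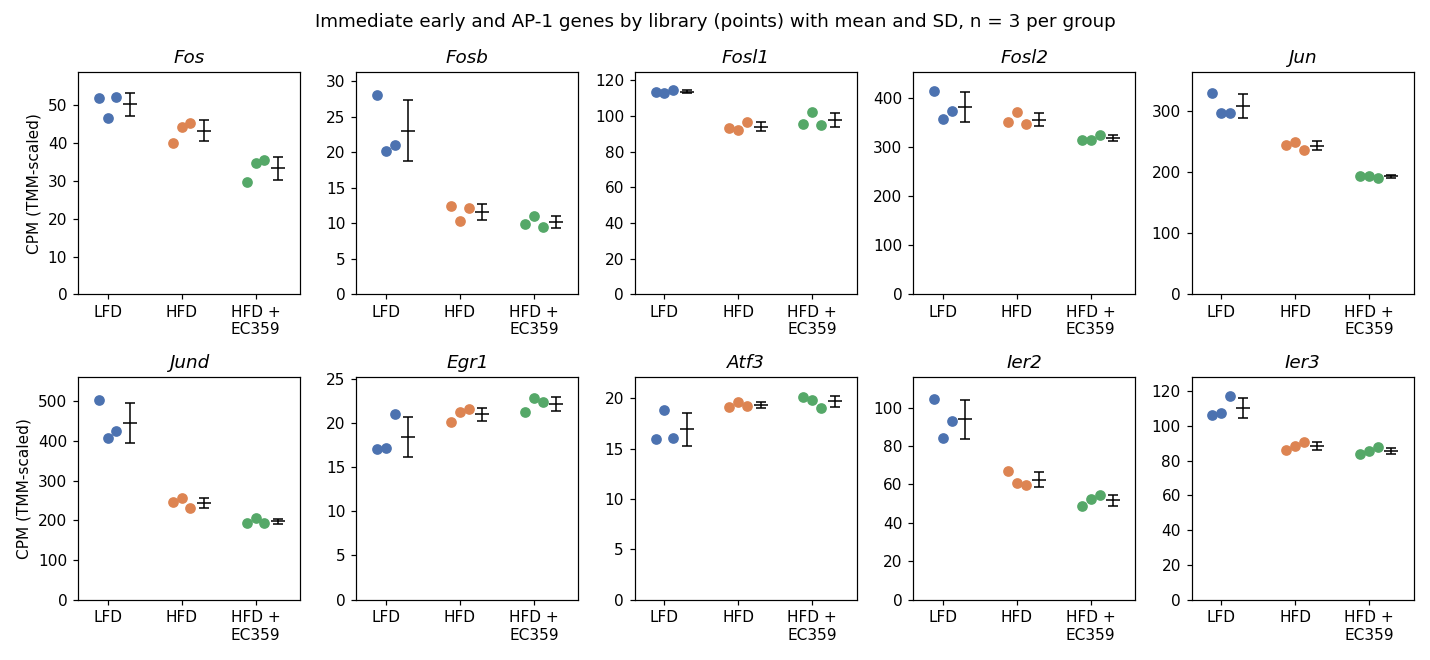
Level of each gene in CPM (read counts scaled to library size, vertical axes from 0) in the 9 libraries, with the group mean and SD (n = 3) beside the points. Jun and Jund step down from LFD through HFD to HFD + EC359 with no overlap between groups, whereas Egr1 stands at 17.0 to 21.0 CPM in LFD and 21.2 to 22.8 CPM in HFD + EC359.

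Jun (mm9 chromosome 4, 94715727 to 94718913, minus strand, 1 exon) encodes the Jun subunit, a strong activator that is induced by growth factors and stress. In CPM it stood at 330.4, 296 and 298 in LFD replicates 1 to 3, at 244, 250.3 and 237 in the HFD libraries, and at 195, 195 and 190.3 in the HFD + EC359 libraries. All HFD libraries were below all LFD libraries, and all HFD + EC359 libraries were below all HFD libraries. Jun fell by 0.34 on the log2 scale from LFD to HFD (SE 0.0429, adjusted p = 7.44e-08) and by 0.34 from HFD to HFD + EC359 (SE 0.0429, adjusted p = 2.26e-07). With the GC and length trend removed, the log2 fold changes were -0.17 (adjusted p = 0.000409) and -0.29 (adjusted p = 1.12e-07).

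Jund (mm9 chromosome 8, 73221638 to 73224515, plus strand, 1 exon) encodes JunD, the Jun family subunit that resting cells also carry and whose gene is little induced by serum. It stood at 504, 408 and 426 CPM in LFD replicates 1 to 3, at 245, 256 and 232 CPM in HFD, and at 193, 205 and 193 CPM in HFD + EC359. The 3 groups did not overlap, and LFD replicate 1 was the highest library. Jund fell by 0.86 on the log2 scale from LFD to HFD (SE 0.0527, adjusted p = 5.05e-15) and by 0.31 from HFD to HFD + EC359 (SE 0.0539, adjusted p = 3.72e-05). Without LFD replicate 1 the first value was -0.77, and -0.53 (adjusted p = 3.86e-14) once the GC and length trend was taken out, which gave -0.16 (adjusted p = 0.00243) for the second.

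Fos (mm9 chromosome 12, 86814851 to 86818219, plus strand, 4 exons) encodes c-Fos, the partner of the Jun proteins that is induced fastest and lost fastest. It had 52.0, 46.8 and 52.2 CPM in LFD, 40.1, 44.4 and 45.4 CPM in HFD, and 29.8, 34.6 and 35.6 CPM in HFD + EC359. The groups did not overlap, although the highest HFD library and the lowest LFD library were close. Fos fell by 0.21 on the log2 scale from LFD to HFD (SE 0.0839, adjusted p = 0.0325) and by 0.37 from HFD to HFD + EC359 (SE 0.0828, adjusted p = 0.000893). The first of these calls was lost without LFD replicate 1 (-0.19, adjusted p = 0.0638), without LFD replicate 3 (-0.18), without HFD replicate 1 (-0.16), with library totals as the only scaling (-0.17), by DESeq2 (-0.22), and when the GC and length trend was taken out (-0.16, adjusted p = 0.113). The second kept its call with the trend removed (-0.36, adjusted p = 0.000828).

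Fosb (mm9 chromosome 7, 19888045 to 19895394, minus strand, 4 exons) encodes FosB, a Fos family subunit with an activation domain. It had 28.0, 20.1 and 21.0 CPM in LFD, 12.4, 10.3 and 12.1 CPM in HFD, and 9.95, 11.1 and 9.50 CPM in HFD + EC359. All LFD libraries were above all others, and the HFD and HFD + EC359 libraries overlapped. Fosb fell by 0.97 on the log2 scale from LFD to HFD (SE 0.133, adjusted p = 2.72e-07). Between HFD + EC359 and HFD the log2 difference was -0.19 with a 95% interval of -0.48 to 0.10 (adjusted p = 0.346).

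Fosl1 (mm9 chromosome 19, 5447698 to 5455938, plus strand, 4 exons) encodes Fra-1, which is highly expressed in invasive breast cancer cells. Its level was 114, 113 and 114 CPM in LFD, 93.3, 91.8 and 96.8 CPM in HFD, and 95.5, 102 and 94.9 CPM in HFD + EC359. The LFD libraries were the highest, and the HFD and HFD + EC359 libraries overlapped. Fosl1 fell by 0.27 on the log2 scale from LFD to HFD (SE 0.0515, adjusted p = 4.54e-05). With the GC and length trend removed this was -0.03 (adjusted p = 0.697), so that the call rests on the setting. Between HFD + EC359 and HFD the log2 difference was 0.05 with an interval of -0.05 to 0.15 (adjusted p = 0.481). Ccdc85b lies on the other strand over part of Fosl1, and the counting used strand.

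Fosl2 (mm9 chromosome 5, 32438845 to 32460212, plus strand, 4 exons) encodes Fra-2, the other long-lived Fos family subunit. It had 414, 356 and 373 CPM in LFD, 350.1, 369.8 and 346 CPM in HFD, and 315, 313 and 324 CPM in HFD + EC359. LFD and HFD overlapped, and all HFD + EC359 libraries were below all others. Fosl2 fell by 0.16 on the log2 scale from HFD to HFD + EC359 (SE 0.0424, adjusted p = 0.00377). From LFD to HFD the log2 difference was -0.10 with an interval of -0.19 to -0.01 (adjusted p = 0.0604), and it passed the test without LFD replicate 2 (-0.15) or without HFD replicate 2 (-0.13), while it was -0.04 (adjusted p = 0.42) without LFD replicate 1.

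**Figure D2:**
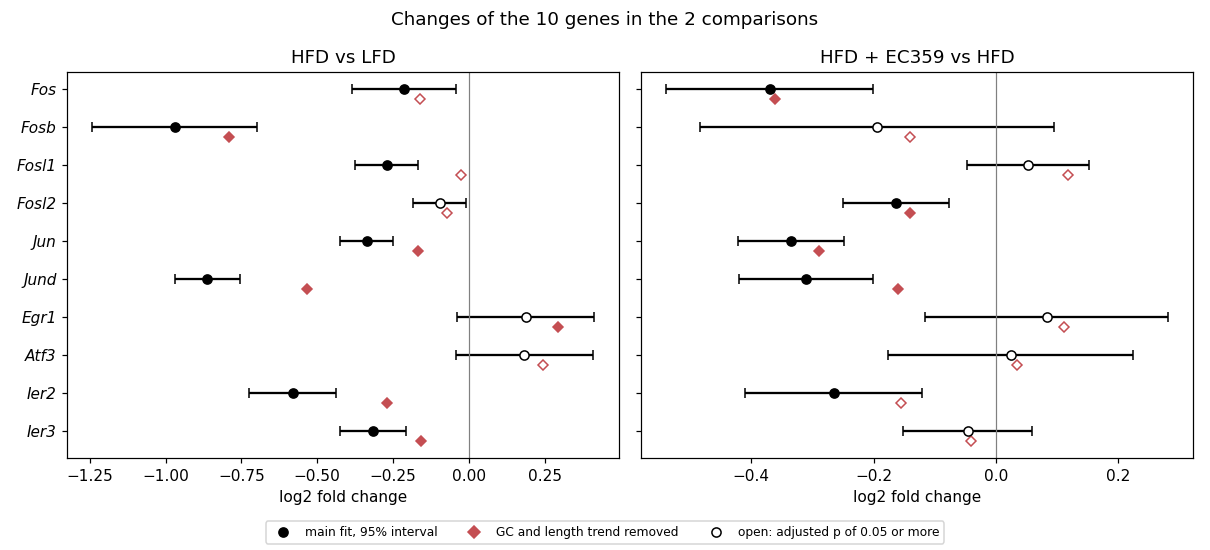
Log2 fold change of each gene (horizontal axes) in HFD against LFD on the left and HFD + EC359 against HFD on the right, with 95% intervals in black and, as red diamonds, the value with the GC and length trend removed. Open symbols did not pass at an adjusted p of 0.05. Fosb and Jund lie farthest to the left in the diet comparison, at -0.97 and -0.86, and Fosl1 moves from -0.27 to -0.03 when the trend is removed.

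Ier2 (mm9 chromosome 8, 87185230 to 87186751, minus strand, 1 exon) encodes a small nuclear protein of the immediate early class. It had 105, 84.3 and 93.1 CPM in LFD, 66.8, 60.8 and 59.6 CPM in HFD, and 48.8, 52.4 and 54.4 CPM in HFD + EC359. The 3 groups did not overlap. Ier2 fell by 0.58 on the log2 scale from LFD to HFD (SE 0.0701, adjusted p = 2.43e-08) and by 0.27 from HFD to HFD + EC359 (SE 0.0712, adjusted p = 0.005). With the GC and length trend removed the values were -0.27 (adjusted p = 0.000611) and -0.16 (adjusted p = 0.0745), and the second call was also lost without HFD replicate 1 (-0.21).

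Ier3 (mm9 chromosome 17, 35958658 to 35959856, plus strand, 2 exons) encodes a stress-inducible regulator of cell survival. It had 106, 107 and 117 CPM in LFD, 86.3, 88.4 and 90.9 CPM in HFD, and 83.9, 85.4 and 87.6 CPM in HFD + EC359. The LFD libraries were above all others. Ier3 fell by 0.32 on the log2 scale from LFD to HFD (SE 0.0534, adjusted p = 8.69e-06), and by 0.16 with the GC and length trend removed (adjusted p = 0.0138). Between HFD + EC359 and HFD the log2 difference was -0.05 with an interval of -0.15 to 0.06 (adjusted p = 0.568).

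Egr1 (mm9 chromosome 18, 35020861 to 35024610, plus strand, 2 exons), a zinc finger transcription factor, and Atf3 (mm9 chromosome 1, 192994176 to 193007212, minus strand, 4 exons), a stress-induced member of the ATF/CREB family that can pair with Jun proteins, had positive differences. Egr1 stood at 17.0, 17.1 and 21.0 CPM in LFD, 20.1, 21.2 and 21.5 CPM in HFD, and 21.2, 22.8 and 22.4 CPM in HFD + EC359. Its LFD and HFD libraries overlapped because of LFD replicate 3. The log2 difference of Egr1 was 0.19 between HFD and LFD with an interval of -0.04 to 0.41 (adjusted p = 0.158) and 0.08 between HFD + EC359 and HFD with an interval of -0.12 to 0.28 (adjusted p = 0.589). The diet difference passed the test with the GC and length trend removed (0.29, adjusted p = 0.0317) and without LFD replicate 3 (0.29).

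Atf3 stood at 16.0, 18.8 and 16.0 CPM in LFD, 19.2, 19.6 and 19.2 CPM in HFD, and 20.1, 19.9 and 19.1 CPM in HFD + EC359. The LFD libraries were below all HFD libraries, and 28.6% of all tested genes had such a separation upward in this comparison. The log2 difference of Atf3 was 0.18 between HFD and LFD with an interval of -0.04 to 0.41 (adjusted p = 0.171) and 0.02 between HFD + EC359 and HFD with an interval of -0.18 to 0.22 (adjusted p = 0.889).

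The HFD + EC359 tumors were also set against the LFD tumors, which differ from them in both diet and treatment. Here 8 of the 10 genes fell and 1, Egr1, rose, beside 58.3% of all tested genes that passed, 29.1% lower and 29.2% higher. The groups did not overlap for 8 genes that were lower and 2 that were higher, 10 in all, beside 31.1%, 31.8% and 62.9% of all tested genes. Fosb fell by 1.16 and Jund by 1.17 on the log2 scale, Ier2 by 0.85, Jun by 0.67, Fos by 0.58, Ier3 by 0.36, Fosl2 by 0.26 and Fosl1 by 0.22. Egr1 rose by 0.27 (adjusted p = 0.0305), a call that was lost by DESeq2 (0.26) and when any of 4 libraries was left out, namely LFD replicate 1 (0.22) or 2 (0.21) and HFD + EC359 replicate 2 (0.25) or 3 (0.25). Atf3 had a log2 difference of 0.21 (adjusted p = 0.101). With the GC and length trend removed, Fosl1 turned to 0.09 (adjusted p = 0.123), Atf3 passed at 0.28 (adjusted p = 0.0305), and Jund, Ier2 and Ier3 stood at -0.69, -0.43 and -0.20.

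At the threshold of the study's methods, a fold change over 2 with an adjusted p under 0.01, 0 of the 10 genes passed in HFD against LFD, 0 in HFD + EC359 against HFD and 2, Fosb and Jund, in HFD + EC359 against LFD. The shares of all tested genes past it were 5.71%, 3.43% and 5.09%. The first count became 1, by Fosb, when LFD replicate 2 or 3, or HFD replicate 1 or 3, was left out, and the last became 0 with the GC and length trend removed.

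Levels can be set beside each other per length, in TPM, which divides counts by exon length and scales each library to a common sum. In the LFD group the mean TPM was 334 for Jund, 218 for Ier3, 209 for Jun, 144 for Fosl1, 140.1 for Fosl2, 133 for Ier2, 51.9 for Fos, 18.5 for Atf3, 13.1 for Fosb and 12.9 for Egr1. The libraries of Ier3 and Jun overlapped, as did those of Fosl1, Fosl2 and Ier2, and those of Fosb and Egr1. In the HFD + EC359 group Ier3 was first at 185 TPM, ahead of Jund at 162, Jun at 143, Fosl1 at 135 and Fosl2 at 128, with no overlap between neighbours among these 5, and Fosb was last at 6.35 TPM. In the HFD group the libraries of Jund, at a mean of 196 TPM, overlapped those of Ier3, at 188 TPM. On this scale Fosl2 had a mean of 140.1 TPM in both the LFD and the HFD group.

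The Jun family has 1 more gene, Junb, which encodes a subunit that is induced early and can restrain Jun. Junb held 50.5% ± 1.51 of the summed Jun family TPM in LFD, 55.9% ± 0.749 in HFD and 54.2% ± 0.328 in HFD + EC359 (SD, n = 3). The share of Jund was 30.5% ± 1.51, 23.2% ± 0.350 and 24.3% ± 0.328, with all LFD libraries above all others. The summed family level had group means of 1095, 846 and 665 TPM. In the Fos family, Fosb held 3.76% ± 0.539 in LFD, 2.21% ± 0.233 in HFD and 2.07% ± 0.139 in HFD + EC359, while Fosl1 and Fosl2 together made up most of the family in every library. An exact permutation test of 3 against 3 libraries cannot go below p = 0.1, so these shares are given without a test.

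**Figure D3:**
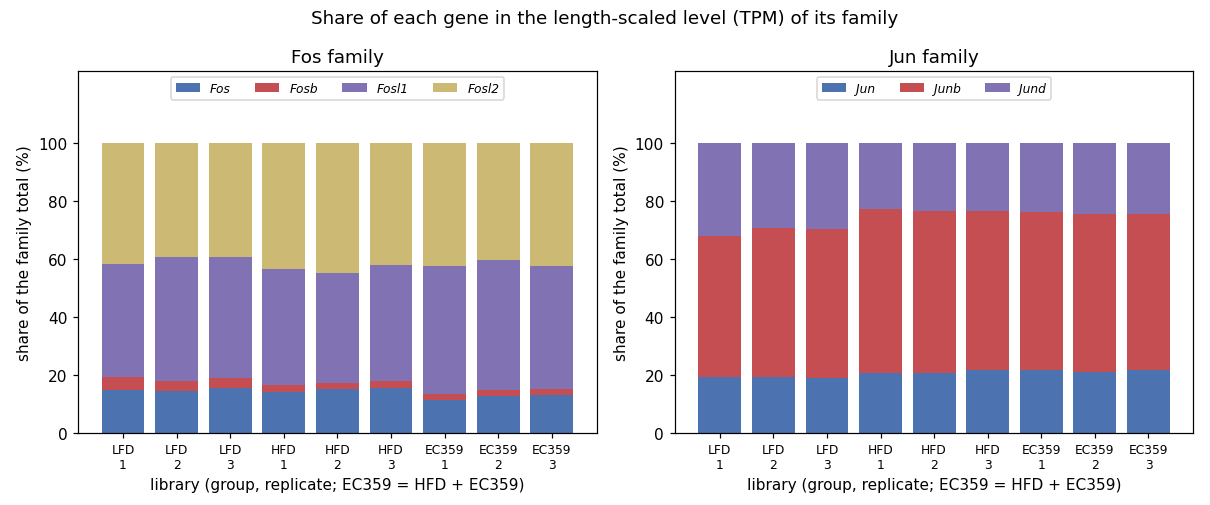
Share of each gene in the summed TPM of its family (vertical axes, %), with 1 bar per library and the Fos family on the left and the Jun family on the right. Jund takes 29.4% to 32.2% of the Jun family in the LFD libraries and 22.8% to 24.5% in the other 6, and Fosl1 with Fosl2 fills most of the Fos family in all 9.

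The counts of the lists that follow stand beside 25.8% of all tested genes lower and 26% higher in HFD against LFD, and 13.9% lower and 12.7% higher in HFD + EC359 against HFD. Among 16 other genes of the AP-1 family, 7 fell and 2 rose in HFD against LFD, with a median log2 fold change of -0.17, and 5 fell and 3 rose in HFD + EC359 against HFD, with a median of 0.07. The last 2 counts were 2 and 1 without HFD + EC359 replicate 1 and 3 and 1 without HFD replicate 1, and 1 rose without HFD replicate 3. Junb fell by 0.32 and by 0.42 on the log2 scale (adjusted p = 8.00e-08 and 9.05e-10), but the diet value was 0.01 with the GC and length trend removed. Atf5, a relative that acts in stress responses, fell by 0.79 and by 0.21, the latter not passing with the trend removed (-0.11) or without replicate 1 of HFD (-0.19) or of HFD + EC359 (-0.20). Maff, a small Maf protein, fell by 0.63 and by 0.32. With the trend removed, the diet values were -0.51 for Atf5 and -0.41 for Maff.

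Of 38 other immediate early genes, 20 fell and 3 rose in HFD against LFD (median -0.14), and 13 fell and 4 rose in HFD + EC359 against HFD (median -0.04). The number that rose with diet was 7 with the GC and length trend removed, and the number that rose with treatment was 2 without HFD replicate 1 or HFD + EC359 replicate 3. Mcl1, which encodes a survival protein of the Bcl-2 family, fell by 0.48 and by 0.17 on the log2 scale, the latter not passing without HFD replicate 1 (-0.14) or HFD + EC359 replicate 3 (-0.15). Arc and Egr3, both of low level with group means of 0.829 to 2.44 and 2.46 to 5.13 CPM, fell by 1.53 and by 1.05 in the diet comparison, and Egr3 rose by 0.82 in the treatment comparison, a call lost without HFD replicate 1 (0.73), HFD replicate 2 (0.69) or HFD + EC359 replicate 3 (0.65). Gadd45g, a growth arrest gene, had a diet difference of -0.07 (adjusted p = 0.674) and fell by 0.74 in the treatment comparison.

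Negative feedback genes were listed too, among them the dual specificity phosphatases, which remove phosphate from MAP kinases. Of the 22 genes in this list, which are not all phosphatases, 11 fell and 1 rose in HFD against LFD (median -0.13). The number that rose was 2 when LFD replicate 2 was left out. In HFD + EC359 against HFD, 8 fell and 3 rose (median -0.09). Without HFD replicate 2, or without HFD + EC359 replicate 1, 5 fell in this comparison. Dusp1 fell by 0.44 with diet on the log2 scale and differed by -0.03 (adjusted p = 0.794) with treatment. Dusp5 fell by 0.73 with diet, and Dusp8 fell by 0.62 with diet and by 0.61 with treatment. With the trend removed, the diet values were -0.38 for Dusp5 and -0.39 for Dusp8. Their group means were 25.4 to 47.0 and 7.35 to 17.2 CPM. Dusp6, at group means of 327 to 352 CPM, had a diet difference of 0.04 (adjusted p = 0.339). Its treatment value was a fall of 0.11. That call was lost with library totals as the only scaling (-0.08), without HFD replicate 1 or 2, and without any single HFD + EC359 library.

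Upstream of the class, 11 of 35 genes of the MAP kinase, serum response factor and LIF receptor pathways fell and 13 rose in HFD against LFD (median 0.11), and 11 fell and 3 rose in HFD + EC359 against HFD (median -0.04). Srf, which encodes the factor that binds the CArG boxes shown for Fos and Fosb, fell by 0.48 and by 0.27 on the log2 scale, and by 0.21 and 0.16 with the trend removed. Stat3 had a diet difference of -0.05 (adjusted p = 0.26) and fell by 0.13 in the treatment comparison, which did not pass without HFD replicate 2 (-0.11). Lifr, the receptor gene, rose by 0.18 and by 0.38, and the diet value was -0.03 with the GC and length trend removed and did not pass without LFD replicate 2 (0.13) or HFD replicate 1 (0.17). Lif, the ligand gene, had a diet difference of 0.14 (adjusted p = 0.381) and fell by 0.74 in the treatment comparison.

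Of 25 genes known as AP-1 targets, 21 were tested. In HFD against LFD 10 fell and 4 rose (median -0.08), and in HFD + EC359 against HFD 6 fell and 6 rose (median -0.06). The largest passing diet changes in this list were increases, of 1.39 for Fgf7, a fibroblast growth factor with a mean of 1.55 CPM in LFD, and 0.93 for S100a8, a neutrophil protein that also rose by 0.70 with treatment. Ccnd1, which encodes cyclin D1, fell by 0.18 and by 0.16 on the log2 scale. Mmp3, a matrix metalloproteinase, fell by 0.79 with diet and rose by 0.81 with treatment, whereas Lmna, which encodes lamin A, fell by 0.64 with diet (-0.38 with the trend removed) and differed by -0.07 (adjusted p = 0.115) with treatment.

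**Figure D4:**
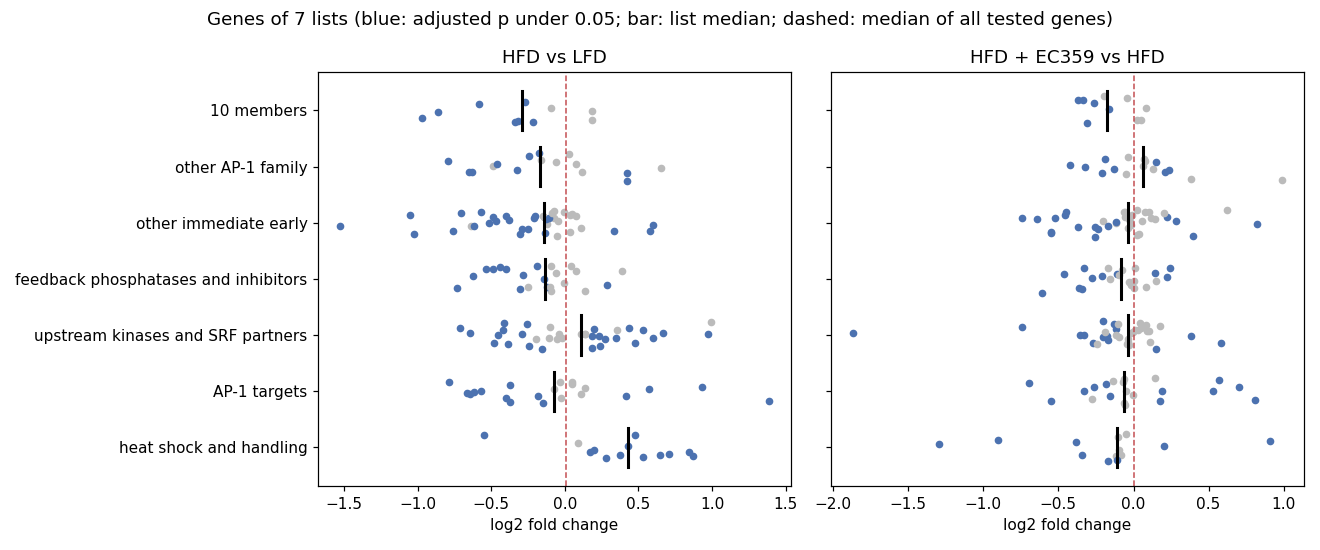
Log2 fold changes of the genes of each list (points), in HFD against LFD on the left and HFD + EC359 against HFD on the right, with blue points at an adjusted p under 0.05, black bars at list medians and dashed lines at the median of all tested genes. The 10 genes described here have medians of -0.29 and -0.18, and the heat shock list has medians of 0.43 and -0.11.

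Heat shock genes were listed because handling and stress induce both them and the immediate early class. Of 13 such genes 11 rose and 1 fell in HFD against LFD (median 0.43), the 1 that fell, Hspb1, not passing without LFD replicate 1, LFD replicate 2 or HFD replicate 2, with the trend removed (-0.25) or by DESeq2 (-0.56), and 2 rose and 6 fell in HFD + EC359 against HFD (median -0.11). Hspa1b rose by 0.87 and fell by 1.29, Hspa1a rose by 0.84 and fell by 0.90, and Hspa8 rose by 0.64 and by 0.20 on the log2 scale. Their part in the values of the 10 genes was not tested.

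Genes listed as markers of cell types moved with the groups as well, and which cells carried these transcripts was not tested. The summed level of 14 epidermis genes was 1706 to 1966 CPM in LFD, 200.5 to 209 CPM in HFD and 839 to 849 CPM in HFD + EC359, with 12 of 14 lower in HFD than in LFD and 13 of 14 higher in HFD + EC359 than in HFD. For the 10 fibroblast genes the sum was 7991 to 9405 CPM in LFD and 13872 to 14602 CPM in HFD. It was 4209 to 4320 CPM in HFD + EC359. Most of this sum was Col1a1 and Col1a2, at group means of 1613 to 6870 and 781 to 3263 CPM. All 10 genes were higher in HFD than in LFD, and 7 were lower and 1 higher in HFD + EC359 than in HFD. In HFD + EC359 against LFD, 4 of the 10 genes were higher and 5 lower. The 8 endothelium genes summed to 304 to 321, 495 to 531 and 388 to 409 CPM, with 8 of 8 higher in HFD than in LFD and 6 of 8 lower in HFD + EC359 than in HFD. The 9 macrophage genes summed to 1734 to 1761, 1602 to 1631 and 1985 to 2014 CPM, although 5 of them were higher and 2 lower in HFD than in LFD, and 7 were higher and 1 lower in HFD + EC359 than in HFD. No marker of these lists was at 0 in all libraries. The part of these cell types in the values of the 10 genes was not tested.

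The carcinoma epithelium list summed to 1122 to 1142 CPM in LFD, 707 to 715 CPM in HFD and 766 to 796 CPM in HFD + EC359. Nearly all of it was Krt8 and Krt18, at group means of 408 to 599 CPM and 293 to 486 CPM. Of the 8 epithelial genes 5 were tested, and 5 of these were lower in HFD than in LFD (median log2 fold change -2.27). In HFD + EC359 against HFD, 4 of the 5 were higher and 0 lower (median 1.75). Both medians come from the genes of lower level. Krt8 and Krt18 fell by 0.55 and by 0.73 on the log2 scale with diet. With treatment they differed by 0.12 (adjusted p = 0.0102) and by 0.06 (adjusted p = 0.304). Epcam was at 0.883 to 7.77 CPM and Cldn7 had at most 3 counts in any library, so the epithelial label rests mainly on the keratins. Of the receptors that define the triple-negative class, Esr1 was at 6.34 to 12.7 CPM and Erbb2 at 72.8 to 109 CPM, and Pgr did not pass the filter.

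The 10 genes followed each other unequally over the 9 libraries. Correlations are given as a description with no test, since the libraries share group means, depth and the GC trend. The log2 CPM of Jund had Pearson correlations of 0.984 with Ier2, 0.973 with Fosb and 0.965 with Jun (n = 9). They were -0.853 with Atf3 and -0.808 with Egr1. Genes outside the 10 were nearer still to Jund, at r of up to 0.999. The genes nearest in pattern to Jun were 1110012J17Rik, Mrfap1 and Mex3d (r = 0.997, 0.997 and 0.995, n = 9), and those nearest to Fos were Igfbp5, Msln and Prkce (r = 0.988, 0.98 and 0.976). For Fosl1 they were Top1mt, Dll1 and Ilvbl (r = 0.984, 0.981 and 0.979), for Egr1 Zfp239, Pppde1 and Atxn2 (r = 0.976, 0.976 and 0.971), and for Atf3 Ndufaf2, Usp16 and A230056P14Rik (r = 0.977, 0.975 and 0.972).

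The spread between libraries of a group was small. The median within-group SD of log2 CPM over the 10 genes was 0.12 in LFD, 0.05 in HFD and 0.05 in HFD + EC359, beside 0.12, 0.09 and 0.08 over all tested genes and 0.09, 0.07 and 0.06 over the 9977 genes above 10 CPM. Fosb had the widest spread in LFD, with an SD of 0.26, and Fosl1 the narrowest at 0.01. The biological coefficient of variation over all genes was 3.63%, with 5.61% within LFD, 2.54% within HFD and 2.76% within HFD + EC359. The p-values measure only this spread between libraries. Whether it is a spread between separate tumors, or a technical one between libraries of shared material, was not tested.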

How the data were processed

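The deposited files hold expected counts of read pairs per gene, which the authors made with featureCounts 1.5.0-p1 on reverse-stranded libraries and mm9 annotation, dividing pairs that fit several places into fractions, without normalization. The submitters' processing notes name HISAT2 2.1.0 as a tool, and the methods of the study name another aligner and counter. The values were rounded. A count of 3 corresponds to 0.308 to 0.59 CPM, for counting error only. In R 4.3.3, filterByExpr, TMM scaling and the quasi-likelihood test of edgeR 4.0.16 were fitted to the 9 libraries with 3 group means, and p-values were adjusted over all 13366 tested genes. Groups came from the sample labels, which name no batch. The same replicate numbers in different groups did not pair the libraries (correlations of deviations -0.03 to 0.02). Alternatives, 18 in number, included DESeq2 1.42.0, other scaling and filters, the GC and length trend removed from each library by lowess, and leaving out each library. Exon GC came from NCBIM37 for 99.2% of genes. The script was tested on simulated data. Genes and lists were chosen with earlier results of these data known. The named genes were the 10, then of each pathway list the 3 highest in CPM and the 2 with the largest passing change in each of the first 2 comparisons, of each marker list the 2 highest, Junb, Myc, Stat3, Lifr, Il6st, Srf and Dusp1, and the 3 nearest patterns of 5 genes, from which the text takes examples. Epcam, Cldn7, Esr1, Erbb2 and Pgr were named as markers after their values were seen. 1 of the genes that the rule names is not reported here.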

Additional observations from a re-analysis of the deposited data

How the results depend on the processing

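For the 10 genes, 540 alternative values were computed over 18 alternatives, and 513 kept their direction and their side of the threshold. 17 lost their call, 8 gained one and 2 reversed, both for Fosl1 in HFD + EC359 against LFD with the GC and length trend removed (0.091, and 0.091 with the replicate block added). The number of the 10 genes that passed was 6 to 8, 4 to 5 and 8 to 10 in the 3 comparisons. The replicate block alone, with numbers that did not pair the libraries, left these counts at 7, 5 and 9. At a fold change over 2 the count of 0 in HFD against LFD ranged from 0 to 1 when 1 library was left out, and the count of 2 in HFD + EC359 against LFD was 0 with the trend removed and 0 with the block and the trend.

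For the 40 other genes tried, 1319 of 1430 values kept direction and side. With the trend removed, and then with the block and the trend, the log2 fold changes in HFD against LFD turned to 0.0086 and 0.0081 for Junb, 0.067 and 0.069 for Atf4, -0.17 and -0.17 for Btg1, 0.22 and 0.22 for Rhob, 0.22 and 0.21 for Gadd45g, 0.025 and 0.0299 for Dusp2, 0.0049 and 0.0059 for Stat3, and -0.033 and -0.036 for Lifr. In HFD + EC359 against HFD they turned to 0.0068 and 0.0071 for Rhob and 0.027 and 0.027 for Lmna. With library totals as the only scaling, Rhob turned to 0.035 in HFD against LFD and Dusp1 to 0.00403 in HFD + EC359 against HFD. When 1 library was left out, Rhob ranged from -0.032 to 0.013 in HFD against LFD, and Arc from -0.034 to 0.38 and Dusp1 from -0.083 to 0.023 in HFD + EC359 against HFD.

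Of the list counts, with the trend removed and with the block and the trend, the other immediate early genes that rose with diet numbered 7 and 7, the feedback genes that rose numbered 2 and 2 (2 with library totals only, and 1 to 2 when 1 library was left out), and the heat shock genes that fell numbered 0 and 0 (0 by DESeq2, and 0 to 1 when 1 library was left out). In HFD + EC359 against HFD, other AP-1 family genes that rose numbered 1 and 1, and 1 by DESeq2. When 1 library was left out, 1 to 4 of these rose and 2 to 5 fell, 2 to 4 other immediate early genes rose, and 5 to 9 feedback genes fell. By DESeq2, 2 other immediate early genes and 1 heat shock gene rose. The causes were not tested. Genes of low count, such as Arc, are limited by depth.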
